A study of Mus musculus with 2 samples.

Results

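Cilp, Postn, Tnc, Fn1, Thbs2, Sparc and Spp1 are 7 of the 31053 genes in the deposited matrices, and they encode matricellular and adhesive proteins of the extracellular matrix. The group was selected on raw UMIs (unique molecular identifiers, 1 per captured transcript) by cell class and host genotype in 2 single-cell RNA sequencing libraries of small B16F10 tumours, with Cilp as its lead gene, so the values that follow are descriptions. B16F10 is a mouse melanoma cell line. Hosts carried a tamoxifen-inducible Rosa26::CreERT2, which acts in every tissue, with floxed Atf4 (Atf4 Δ/Δ after tamoxifen, here KO) or with intact Atf4 (Atf4 WT/WT, here WT). Tamoxifen was given to both. Each library held 2 pooled tumours from C57BL/6 mice aged 11 weeks, which the labels describe as males and females together. Only the host was deleted, since the injected melanoma cells carried an intact Atf4 throughout. With 1 library per genotype there is no replicate, and every interval below is a 95% interval for counting error alone.

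Matricellular proteins are secreted into the matrix but are not its load-bearing fibres. They bind collagens, growth factors and cell surface receptors such as integrins, and so tune adhesion, migration and signalling. Many are low in resting adult tissue and abundant in wounds, fibrosis and tumour stroma, where activated fibroblasts are a main source and macrophages are known for osteopontin and fibronectin.

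The libraries held 38417113 UMIs in 6304 barcodes (WT) and 38290024 UMIs in 5474 barcodes (KO), of which 3861 and 3557 cells passed the filters, with median depths of 3920 and 6279 UMIs. They shared 10 barcodes, 1 among the kept cells and 0 among fibroblast-like cells. Marker gates that contain no gene of the group assigned 190 WT and 233 KO cells as fibroblast-like, which stand here for the cancer-associated fibroblasts (CAFs), with median depths of 3742.5 and 3709 UMIs. All 14 fibroblast markers had UMIs in both libraries, summing to 14246 and 13277 CPM, the UMIs of a gene or list per 1000000 UMIs of the class. The 12 endothelial markers summed to 172 and 124 CPM there, with Cldn5 at 0 in both, the 10 melanoma markers to 627 and 657 CPM and the 6 general myeloid markers to 162 and 65.1 CPM, and their part in the results was not tested. At the gate, 5 WT and 4 KO fibroblast-like cells lay within 1.5 times of the threshold, with 20 and 14 cells just outside it. Atf4, the deleted gene, had 192 UMIs (259 CPM) in WT and 38 UMIs (40.5 CPM) in KO fibroblast-like cells, a log2 KO/WT ratio of -2.68 (-3.22 to -2.17), and 226 and 202 CPM in melanoma-like cells.

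The WT library went against its label in 1 respect. No WT fibroblast-like cell held a UMI of the Y-linked genes Ddx3y, Eif2s3y, Kdm5d or Uty, and 153 of 190 held a UMI of Xist, the RNA of the inactive X chromosome in females. In KO, 61 fibroblast-like cells held Xist without Y-linked UMIs, 50 the reverse and 122 neither. Sex and genotype can therefore not be told apart for the KO cells with Y-linked UMIs, and the value of each of the 7 genes over all fibroblast-like cells is also given for Xist-positive cells, meaning those that held Xist but none of the Y-linked genes.

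The group is spread over the genome. On GRCm38, Cilp lies on chromosome 9 (65265180 to 65280605, plus strand), Postn on chromosome 3 (54361109 to 54391037, plus), Tnc on chromosome 4 (63959785 to 64047015, minus), Fn1 on chromosome 1 (71585520 to 71653200, minus), Thbs2 on chromosome 17 (14665500 to 14694235, minus), Sparc on chromosome 11 (55394500 to 55423183, minus) and Spp1 on chromosome 5 (104435118 to 104441050, plus). All are protein-coding genes, and 10x 3′ libraries read the ends of their transcripts, so that splice forms such as those of Fn1 and Tnc were not resolved.

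Promoter sequence is shown for the 3 genes that were lower together in KO fibroblast-like cells. The 250 bases before the transcription start are given 5′ to 3′ along the gene (RefSeq, GRCm38.p6), using the start nearest to that of the gene annotation. Capitals mark a TATA motif (TATAAA).
Cilp (chr9:65264930-65265179, plus strand): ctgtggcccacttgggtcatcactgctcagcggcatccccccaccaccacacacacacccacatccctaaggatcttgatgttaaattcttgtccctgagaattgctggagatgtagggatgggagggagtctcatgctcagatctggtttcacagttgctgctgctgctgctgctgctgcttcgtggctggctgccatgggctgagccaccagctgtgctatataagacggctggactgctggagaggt
Postn (chr3:54360857-54361106, plus strand): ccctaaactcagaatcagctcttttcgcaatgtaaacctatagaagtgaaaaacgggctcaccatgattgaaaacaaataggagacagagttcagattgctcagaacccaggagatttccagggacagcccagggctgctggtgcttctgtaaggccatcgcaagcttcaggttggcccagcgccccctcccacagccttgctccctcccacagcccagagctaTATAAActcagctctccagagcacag
Tnc (chr4:64047016-64047265, minus strand): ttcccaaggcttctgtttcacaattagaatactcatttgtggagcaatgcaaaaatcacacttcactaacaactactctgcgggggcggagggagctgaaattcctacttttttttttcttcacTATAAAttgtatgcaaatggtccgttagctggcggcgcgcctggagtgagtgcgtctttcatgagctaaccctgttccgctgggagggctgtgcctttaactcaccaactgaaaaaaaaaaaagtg
These windows were searched on both strands for TGATGNAA, the composite C/EBP-ATF element that ATF4 is known to bind, for TGACGTCA (cyclic AMP response element), TGANTCA (AP-1), CATTCC (TEAD) and TATAAA. The Cilp window held 0 matches, and the Postn and Tnc windows each held the 1 TATAAA shown, at positions -26 and -126 from the start. Of 32817 promoter windows of the same length, 3.45% held TGATGNAA, 1.55% TGACGTCA, 6.75% TGANTCA, 12.6% CATTCC and 12.4% TATAAA. No match means only that these letters are not in these windows.

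In fibroblast-like cells, 3 of the 7 genes, Cilp, Postn and Tnc, were past 2-fold lower in KO and 0 were past 2-fold higher. Of all 7313 genes with at least 20 UMIs over both libraries, 6.02% were past 2-fold lower and 5.18% past 2-fold higher. The counting interval was below 0 for 5 of the 7 and above 0 for the other 2, against 12.1% and 9.94% of all genes. The median log2 ratio was -0.59 for the group and -0.05 for all genes. The group was chosen with such values known, so these counts describe it and test nothing.

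Cilp encodes cartilage intermediate layer protein, a secreted glycoprotein known to restrain TGF-β and insulin-like growth factor signalling. It had 270 UMIs in WT and 45 UMIs in KO fibroblast-like cells, which is 365 CPM (322 to 411) against 48.0 CPM (35.0 to 64.2). The ratio was 7.59-fold lower in KO, log2 -2.92 (-3.41 to -2.47), which ranked 10 from the lowest of 7313 genes. Fewer cells held Cilp in KO. A Cilp UMI was seen in 68 of 190 WT cells and 12 of 233 KO cells, or 29.8% (22.9 to 37.5) of 161 WT and 4.59% (2.12 to 8.54) of 196 KO cells once each cell was thinned to 2000 UMIs. In macrophage-like cells the thinned share was 0 of 526 in WT and 0 of 412 in KO, which at 3 counts allows up to 0.570% and 0.728% of cells with a UMI (exact upper limits 0.699% and 0.891%) and does not limit the share of cells that express it. The single cell with most Cilp held 25 UMIs in WT and 10 in KO. In Xist-positive cells, Cilp had 393 CPM in WT against 93.4 CPM in KO, a log2 ratio of -2.07 (-2.83 to -1.40).

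Postn encodes periostin, which links integrins to collagen, and Tnc encodes tenascin-C, a large glycoprotein of wound and tumour stroma that weakens adhesion to fibronectin. Postn had 1775 UMIs in WT and 850 UMIs in KO fibroblast-like cells, at 2397 CPM (2287 to 2511) and 907 CPM (847 to 970). Its log2 ratio was -1.40 (-1.52 to -1.28), and its thinned share of cells was 88.2% in WT and 71.4% in KO. Postn was thus seen in most fibroblast-like cells of either library, and the difference lay mainly in the level per cell, with a median of 18.4 UMIs per 10000 in WT cells and 5.99 UMIs per 10000 in KO cells. Tnc had 1018 and 523 UMIs, at 1375 CPM (1292 to 1462) and 558 CPM (511 to 608), a log2 ratio of -1.30 (-1.46 to -1.15). Its thinned share was 60.9% in WT and 41.8% in KO. In macrophage-like cells the thinned shares of both genes were at or under 1.33%. In Xist-positive cells the log2 ratio was -1.17 for Postn and -1.02 for Tnc.

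Sparc encodes osteonectin, a collagen-binding protein, and it was the most evenly spread of the 7 over cells, the 19 WT and 24 KO cells with most of it holding 24.7% of its UMIs in WT and 29.7% in KO. Its sum was 11314 CPM (11073 to 11559) in WT and 7798 CPM (7620 to 7979) in KO fibroblast-like cells, a log2 ratio of -0.54 (-0.58 to -0.49). Nearly every cell held it, with thinned shares of 100% and 99.0%. In Xist-positive cells the log2 ratio was -0.58. Spp1 encodes osteopontin, a ligand of integrins and CD44. Its sums were 2434 CPM (2323 to 2549) in WT and 1622 CPM (1541 to 1705) in KO, a log2 ratio of -0.59 (-0.68 to -0.49), and -0.25 in Xist-positive cells. These sums rest on few cells. The 19 WT and 24 KO cells with most Spp1 held 80.9% and 82.2% of its UMIs, and the thinned share of cells with a UMI was 32.9% (25.7 to 40.8) and 29.1% (22.8 to 36.0). That share was close to that of Dct, a melanocyte gene that fibroblasts should lack, which was seen in 31.7% and 35.2% of the same cells, so the share alone is not read as expression. In the same cells Lyz2, the most abundant general myeloid marker, had 77.0 and 30.9 CPM. Free RNA, estimated from the melanoma marker level of these cells, would give 14.2 CPM of Spp1 in WT and 9.82 CPM in KO. Other sources were not tested.

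Thbs2 encodes thrombospondin-2, known to restrain angiogenesis, and Fn1 encodes fibronectin, the adhesive glycoprotein that cells assemble into fibrils. Both had higher class sums in KO. Thbs2 had 713 CPM (654 to 777) in WT and 1055 CPM (991 to 1123) in KO fibroblast-like cells, a log2 ratio of 0.57 (0.41 to 0.72), with thinned shares of 49.7% and 73.0%. In Xist-positive cells its log2 ratio was 0.68. Fn1 had 2446 CPM (2334 to 2561) and 2918 CPM (2810 to 3030), a log2 ratio of 0.25 (0.17 to 0.34), with thinned shares of 91.3% and 94.4%. The direction for Fn1 turned in Xist-positive cells, where the log2 ratio was -0.52 (-0.69 to -0.35). The median Fn1 value per cell was also slightly lower in KO, at 19.2 against 20.9 UMIs per 10000, and the KO cell with most Fn1 held 100 UMIs against 47 in WT.

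**Figure D1:**
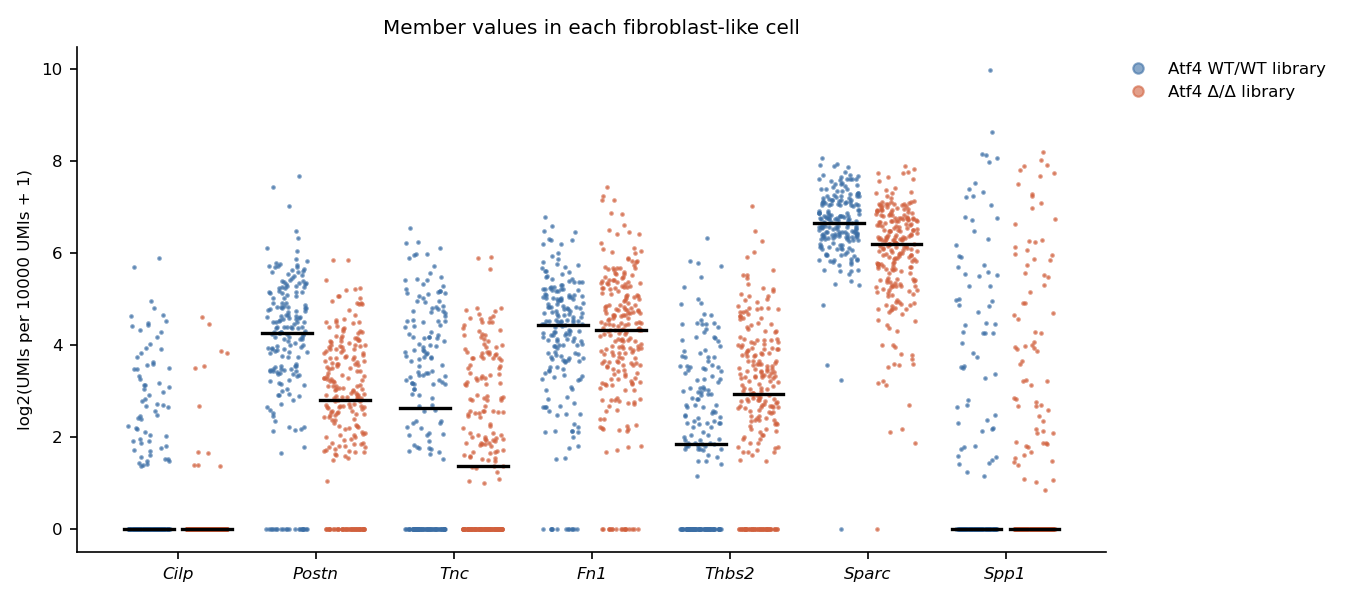
UMIs of each gene per 10000 UMIs, as log2 after adding 1, in every fibroblast-like cell of the WT (blue, 190 cells) and KO (orange, 233 cells) libraries, with the median as a black bar. Cilp and Spp1 medians are at 0 in both, Postn and Tnc medians are lower in KO, Thbs2 is higher in KO and Sparc is seen in nearly every cell.

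Other genes of matricellular type were read from a list of 35, of which 23 had at least 20 UMIs in fibroblast-like cells. Of these 23, 8 were past 2-fold lower in KO and 1 was past 2-fold higher, with a median log2 ratio of -0.69, beside 6.02% lower, 5.18% higher and a median of -0.05 over all genes. The 8 were Wisp2 (-3.38), Smoc2 (-2.38), Thbs4 (-1.81), Wisp1 (-1.75), Spon2 (-1.52), Mgp (-1.51), Ctgf (-1.26) and Sparcl1 (-1.01), given as log2 ratios. Fstl1, Fbln1 and Fbln2 of the list are also markers of the fibroblast gate, and none of them was past 2-fold. Wisp1, Wisp2 and Ctgf belong to the CCN family of integrin-binding signalling proteins, Smoc2 and Sparcl1 are relatives of Sparc, and Mgp is matrix Gla protein, an inhibitor of calcification. The 1 higher gene was Nov, also a CCN protein, with 12 UMIs in WT and 54 UMIs in KO and a log2 ratio of 1.83 (0.91 to 2.87). Close relatives did not share a direction. Thbs1 had 698 CPM in WT and 695 CPM in KO, a log2 ratio of -0.01 (-0.18 to 0.16), beside 0.57 for Thbs2 and -1.81 for Thbs4. Among the tenascins, Tnxb had a log2 ratio of 0.14 (-0.19 to 0.46), and Tnn and Tnr had 4 UMIs and 0 UMIs in all. Cilp2, the paralogue of Cilp, had 0 UMIs in WT and 1 UMI in KO.

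The receptors of these proteins were read in the same way. Of 21 integrin chains, syndecans and other receptors on the list, 15 were measured in fibroblast-like cells, 0 were past 2-fold lower in KO and 1 was past 2-fold higher, with a median log2 ratio of 0.06. Beside the 6.02% and 5.18% of all genes, that count says nothing particular about receptors. Sdc4, a fibronectin-binding syndecan, had 149 CPM in WT against 298 CPM in KO, with a log2 interval of 0.68 to 1.33. Itga5, the α5 chain of the classical fibronectin receptor, was at 161 and 277 CPM, log2 0.79 (0.47 to 1.11), and Cd44, a receptor for osteopontin, at 396 and 526 CPM, log2 0.41 (0.20 to 0.62). Counting intervals lay above 0 for 3 of the 15 receptors and below 0 for 2, beside 9.94% and 12.1% of all genes. Of those below, Itgb5 had a log2 ratio of -0.88 (-1.33 to -0.43). Itgav and Itgb1 had intervals that included 0. Among 9 growth factors and processing enzymes that act on these genes or proteins, 8 were measured. Of these, 2 were past 2-fold lower in KO and 0 past 2-fold higher, beside 6.02% and 5.18% of all genes. The 2 lower were Igf1, at 212 and 59.8 CPM, log2 -1.83 (-2.29 to -1.38), and Tgfb3, with 24 and 10 UMIs, log2 -1.60 (-2.83 to -0.49). Tgfb1 had a log2 ratio of -0.62 (-1.01 to -0.23). Igf1, Tgfb3 and Tgfb1 were the 3 of the 8 with counting intervals below 0, and 2 others had intervals above 0. Of all genes, 12.1% had intervals below 0 and 9.94% above. With a minimum of 50 UMIs, 1 of 7 was past 2-fold lower and 0 higher, beside 170 and 139 of all 4378 genes.

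**Figure D2:**
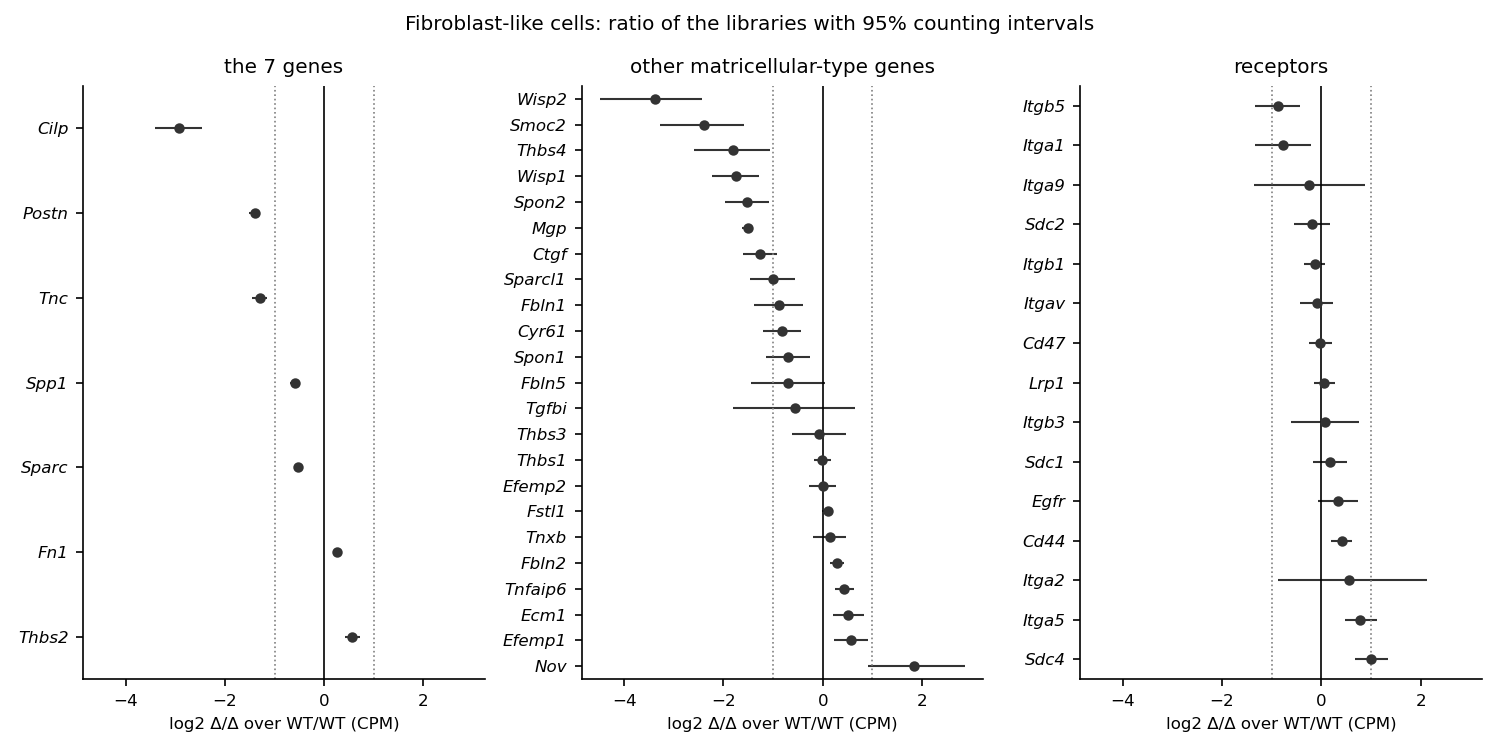
Log2 ratio of KO over WT CPM in fibroblast-like cells for the 7 genes, the 23 measured matricellular-type genes and the 15 measured receptors, with 95% counting intervals as bars and dotted lines at 2-fold. Cilp, Postn and Tnc lie left of the 2-fold line, with 8 genes of the second panel, and 0 receptors do.

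The 7 genes fell into 3 patterns of source. Cilp, Postn, Tnc and Thbs2 came mostly from fibroblast-like cells, which were 4.92% of kept WT cells and 6.55% of kept KO cells. These cells held 81.6% of all Cilp UMIs in WT and 93.8% in KO, 84.9% and 88.2% for Postn, 86.3% and 85.7% for Tnc, and 82.4% and 88.3% for Thbs2. Of the remaining WT Cilp UMIs, 38 lay in the 105 cells past more than 1 gate and 17 in melanoma-like cells. Sparc was shared, with 45.5% of WT and 40.7% of KO UMIs in fibroblast-like cells, 2125 of 18431 UMIs in WT and 807 of 17950 in KO in endothelial-like cells, and 35.7% and 42.7% in the many melanoma-like cells. Its level in endothelial-like cells was 5719 CPM in WT against 7187 CPM in KO, log2 0.33 (0.21 to 0.45), which is the opposite direction to fibroblast-like cells. Only 77 WT and 26 KO cells were endothelial-like, and in Xist-positive cells the log2 ratio was -0.023. Fn1 and Spp1 were shared with myeloid cells, which held 38.3% and 23.0% of Fn1 and 71.4% and 58.6% of Spp1.

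Macrophage-like and monocyte-like cells differed in how Spp1 and Fn1 stood between the libraries. In macrophage-like cells (864 WT, 673 KO), Spp1 had 6277 and 2536 UMIs, at 2799 and 1497 CPM, log2 -0.90 (-0.97 to -0.84), and Fn1 was at 407 and 364 CPM, log2 -0.16 (-0.31 to -0.01). With classes from clusters, macrophage-like Fn1 was -0.92 (-1.08 to -0.77), and in Xist-positive cells macrophage-like Spp1 was 0.80 and Fn1 -0.49. In monocyte-like cells (307 WT, 223 KO), Spp1 had 289 and 356 UMIs, at 845 and 1415 CPM, log2 0.74 (0.52 to 0.97), and Fn1 was at 801 and 1467 CPM, log2 0.87 (0.64 to 1.10). The direction for monocyte-like Spp1 depended on how the class was drawn, and was -0.30 with classes from clusters. The clusters named monocyte-like held 490, 98 and 221 WT cells and 273, 194 and 60 KO cells, so that class was larger than the gated one. Counts past 2-fold in these and other classes were few. In macrophage-like cells 1 of 4 measured genes was past 2-fold lower and 0 higher, against 2.81% and 2.93% of 8873 genes. That gene was Postn, with 15 and 5 UMIs, log2 -1.18, with an interval that included 0. In monocyte-like cells 0 of 3 were past 2-fold, against 4.35% lower and 4.02% higher of 3606 genes. In endothelial-like cells 1 of 5 was lower and 0 higher, against 8.07% and 5.52% of 3569 genes, and it was Tnc, with 27 and 2 UMIs, log2 -2.03 (-5.15 to -0.04). In melanoma-like cells 1 of 6 was lower and 0 higher, against 1.13% and 3.24% of 12281 genes. It was Postn, with 106 and 35 UMIs among 1778 and 1852 cells, log2 -1.59 (-2.18 to -1.03), which was -0.63 with called doublets removed. Free RNA, estimated from the median melanoma marker level of the other classes, would give 4.20 CPM of Postn in WT and 2.06 CPM in KO, beside the 5.32 and 1.77 CPM measured in melanoma-like cells, so these UMIs are not read as expression by them. Spp1 there had 553 and 282 UMIs, log2 -0.96, and -0.20 with called doublets removed, at 27.8 and 14.2 CPM beside 20.5 and 10.6 CPM of estimated free RNA. Melanoma-like Fn1 had 30.7 and 45.8 CPM and Sparc 330 and 387 CPM, beside at most 11.5 and 45.2 CPM of estimated free RNA.

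**Figure D3:**
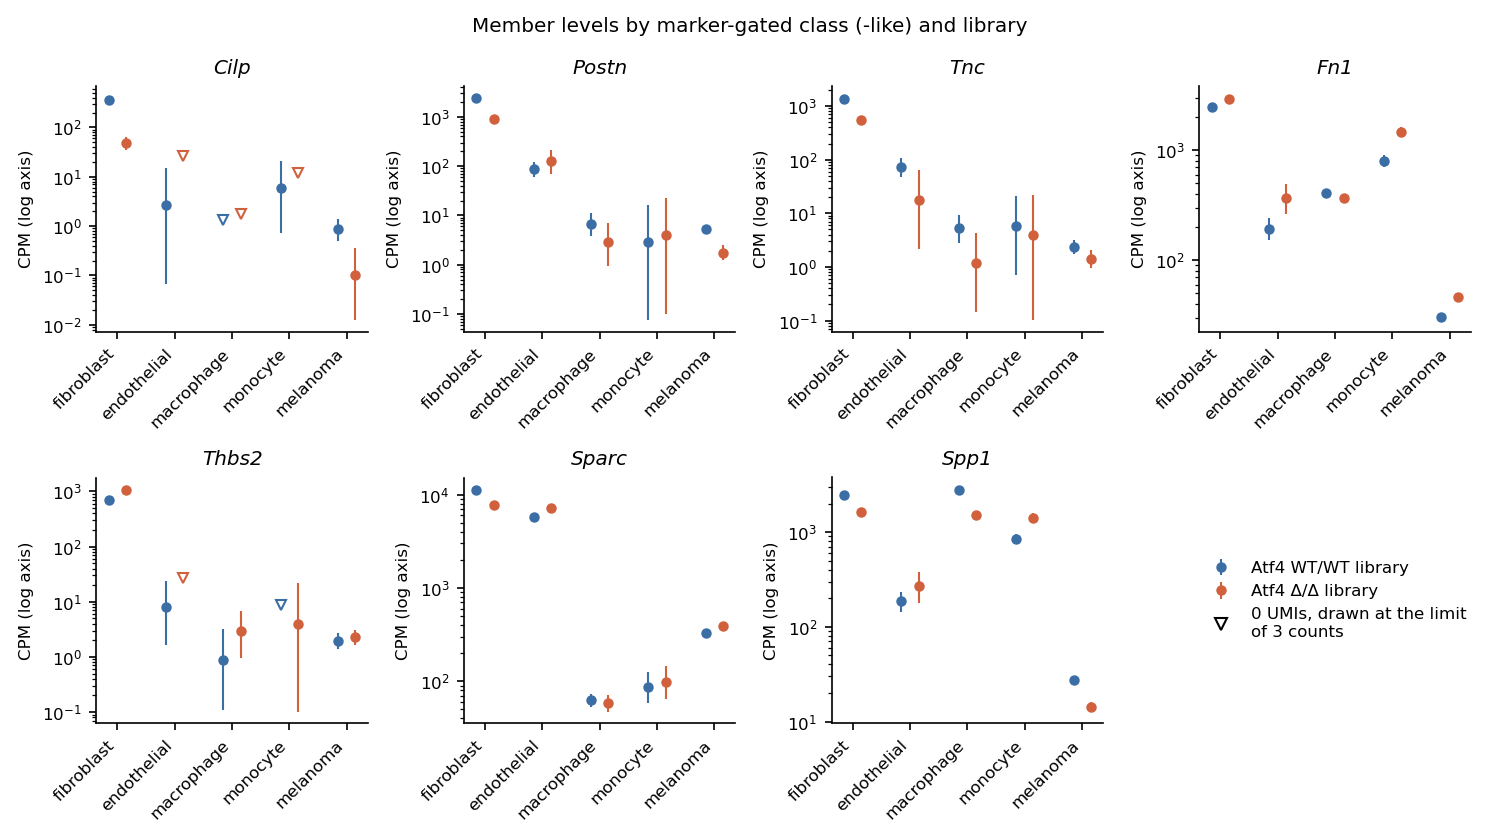
CPM of each gene on a log axis in 5 marker-gated classes of the WT (blue) and KO (orange) libraries, with 95% counting intervals as bars, and triangles at the limit of 3 counts where a class held 0 UMIs. Cilp, Postn, Tnc and Thbs2 are highest in fibroblast-like cells, Sparc is also high in endothelial-like cells, and Fn1 and Spp1 are high in myeloid classes.

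Within the fibroblast-like cells the genes followed different substates. Cells were split by their summed level of 5 marker lists, the top 33.3% of both libraries together being called high. Cilp was higher in cells high for matrix fibroblast genes (a list of the study without Cilp, so its direction is not independent evidence), at 644 CPM against 186 CPM in the other WT cells and 133 CPM against 9.32 CPM in KO. Postn went the same way, at 3509 against 1685 CPM in WT and 1173 against 786 CPM in KO. Thbs2 was higher in cells high for adventitial markers such as Pi16 and Clec3b, at 1451 against 407 CPM in WT and 1515 against 813 CPM in KO. Tnc and Spp1 were lower in those adventitial-high cells, Tnc at 719 against 1647 CPM in WT and 210 against 741 CPM in KO, and Spp1 at 493 against 3238 CPM in WT and 108 against 2420 CPM in KO. Spp1 was higher in cells high for the perivascular list, at 3493 against 1949 CPM in WT and 2944 against 891 CPM in KO. That list was led by Pdgfrb in WT and by Ndufa4l2 in KO, and their part in the Spp1 values was not tested.

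The difference between the libraries kept its direction in all 10 parts for some genes, though not its size. The parts of different lists re-use the same cells. For Postn the log2 ratio lay between -1.74 and -1.10 in the 10 parts, for Tnc between -1.77 and -1.08 and for Sparc between -0.64 and -0.31. Cilp was lower in KO in all 10 parts. In the perivascular-high cells it had 79 UMIs in 59 WT cells (340 CPM) and 0 UMIs in 82 KO cells. Setting the 0 to 3 counts gives a log2 ratio of -5.24, and the counting interval had an upper limit of -4.91. The list did not pick like cells in the 2 libraries. Ndufa4l2 made up 258 of its 789 CPM in WT and 552 of its 799 CPM in KO. Pdgfrb, which the study uses as a marker of CAFs, had 342 and 107 CPM. The part of these 2 genes in the Cilp value was not tested. Thbs2 had intervals that included 0 in adventitial-high, matrix-high and smooth-muscle-low cells, with log2 ratios of 0.06 (-0.15 to 0.27), -0.15 (-0.38 to 0.08) and 0.12 (-0.05 to 0.30). Its ratio was highest in smooth-muscle-high cells, log2 1.37 (1.05 to 1.69), with 340 CPM in WT against 876 CPM in KO. Thbs2 and Spp1 were the genes of the group with ratios on both sides of 0 over these 10 parts, Spp1 with log2 0.15 (0.01 to 0.30) in smooth-muscle-high cells and -2.19 (-2.78 to -1.62) in adventitial-high cells.

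Clustering the fibroblast-like cells without the 7 genes or the other listed genes gave 5 clusters, in which the libraries were unevenly represented. A cluster led by Cxcl5, Il1rl1 and Serpinb2 held 20 WT and 96 KO cells, one led by Tagln and Acta2 held 77 and 29, one led by Pgf, Ndrg1 and Slc2a1 held 5 and 35, one led by Mmp13, Lpl and Cxcl14 held 57 and 15, and one led by Cxcl13, Clec3b and Pi16 held 31 and 58. No integration was used, so a cluster mostly of 1 library may be that library and not a cell state. Cilp was concentrated in the Tagln, Mmp13 and Cxcl13 clusters in WT, at 425, 445 and 353 CPM, and had 3 UMIs (32.6 CPM) in the Cxcl5 cluster, the cluster with most KO cells (96 of 233). Within the Tagln cluster the Cilp ratio was log2 -0.93 (-1.62 to -0.30), within the Mmp13 cluster -1.13 (-2.18 to -0.22) and within the Cxcl13 cluster -3.54 (-5.26 to -2.18), so that in the first pair it was well short of the -2.92 over all fibroblast-like cells. Postn was lower in KO in each of the 5 clusters, with log2 ratios from -1.45 to -0.83. Tnc was lower in KO in the Cxcl5, Tagln and Pgf clusters, at -1.38, -0.86 and -2.76, and had intervals that included 0 in the Mmp13 cluster and in the Cxcl13 cluster, where it had 3 UMIs in WT and 14 in KO.

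The higher sums of Fn1 and Thbs2 in KO were not seen within most clusters. Thbs2 had log2 ratios of 0.10, -0.07, -0.30, -0.65 and -0.29 in the order above, each with an interval that included 0. In WT it was at 1088 CPM in the Cxcl5 cluster, 1302 CPM in the Pgf cluster and 1646 CPM in the Cxcl13 cluster, against 583 CPM in the Tagln cluster and 262 CPM in the Mmp13 cluster, and the first 3 were the clusters with more KO than WT cells. Fn1 had log2 ratios of -0.21, -0.23, -0.77, 0.43 and -0.15, and its WT level was highest in the Cxcl5 and Pgf clusters, at 3929 and 5394 CPM. Spp1 went both ways, with -2.19, -1.24 and -1.92 in the first 3 clusters and 1.78 and 3.88 in the last pair. The last value rests on 2 UMIs in WT and 52 in KO, with an interval of 1.96 to 6.96. Sparc was within 0.50 of 0 on the log2 scale in each cluster, with -0.50 in the Cxcl5 cluster and 0.05 (-0.08 to 0.17) in the Cxcl13 cluster.

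**Figure D4:**
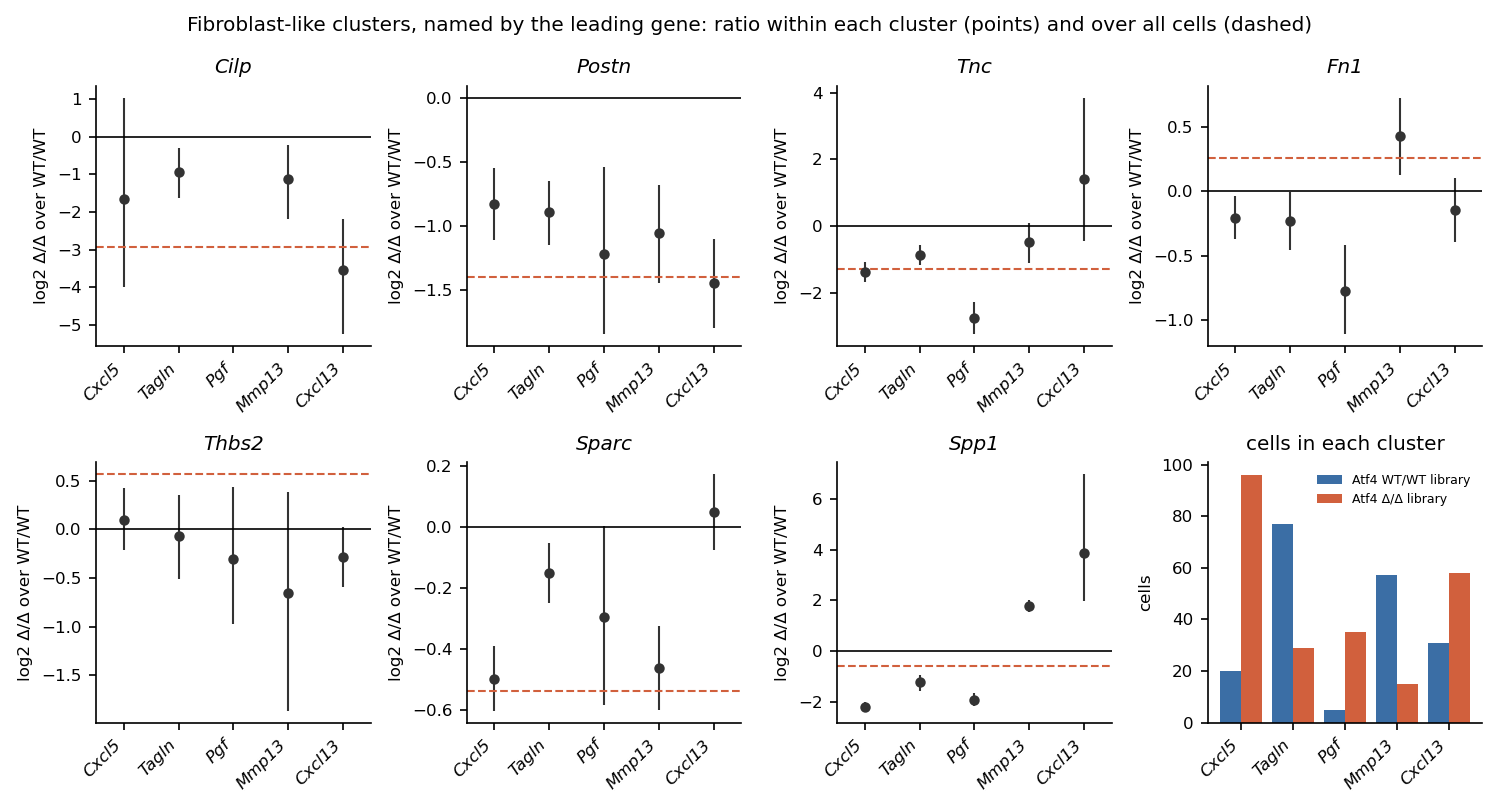
Log2 ratio of KO over WT CPM of each gene within 5 clusters of fibroblast-like cells (points, bars are 95% counting intervals, dashed line is the value over all fibroblast-like cells), and the cells of each library per cluster in the last panel. Postn points lie below 0 in all 5 clusters, Thbs2 intervals include 0 in all 5, Spp1 points lie on both sides of 0, and the Pgf cluster has no Cilp point because it held 1 WT UMI and 0 KO UMIs.

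Sex-linked transcripts placed 61 and 50 of the KO fibroblast-like cells in sets from mice of different sex. The 122 KO cells with neither transcript lie outside both sets, so the sets do not show the spread of the whole pool. Atf4 was at 19.7 CPM (5.36 to 50.3) in the 61 KO cells with an Xist UMI and 39.0 CPM (19.5 to 69.7) in the 50 KO cells with a Y-linked UMI, against 255 CPM in Xist-positive WT cells. Cilp was at 93.4 and 60.2 CPM in the KO sets against 393 CPM in WT. Postn was at 1126 and 921 CPM against 2527 CPM, Tnc at 644 and 468 CPM against 1306 CPM and Sparc at 7747 and 7988 CPM against 11580 CPM. For these 4 genes both KO sets lay below WT, and for Thbs2 both lay above it, at 1244 and 1311 CPM against 774 CPM. In the 122 KO cells with neither transcript, Cilp was at 19.9 CPM, Postn at 800 CPM, Tnc at 576 CPM and Sparc at 7701 CPM. These also lay below the Xist-positive WT cells. Thbs2 was at 811 CPM in the 122 cells, log2 0.07 (-0.13 to 0.27) against those WT cells. Fn1 was at 1765 CPM (1587 to 1957) in the KO cells with an Xist UMI and 3333 CPM (3124 to 3553) in those with a Y-linked UMI, on either side of the 2530 CPM of WT. Spp1 was at 1893 and 1034 CPM against 2249 CPM. In the KO cells with neither transcript, Fn1 was at 3178 CPM and Spp1 at 1867 CPM.

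Spp1 also differed inside the KO pool in macrophage-like cells. It was at 4647 CPM (4357 to 4951) in the 68 KO cells with an Xist UMI and 574 CPM (495 to 663) in the 109 KO cells with a Y-linked UMI, while the 628 WT cells with an Xist UMI were at 2672 CPM (2596 to 2749). The KO sets thus lay on either side of WT, with log2 ratios of 0.80 (0.70 to 0.90) and -2.22 (-2.44 to -2.01) against those WT cells. The 494 KO cells with neither transcript were at 1180 CPM (1118 to 1244). Atf4 was at 48.7 and 39.9 CPM in the KO sets against 169 CPM in WT. Fn1 in macrophage-like cells had 283 and 273 CPM in the KO sets. In monocyte-like cells Spp1 had 3698 CPM in 30 Xist-positive and 421 CPM in 20 Y-linked KO cells, against 705 CPM in 147 Xist-positive WT cells.

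**Figure D5:**
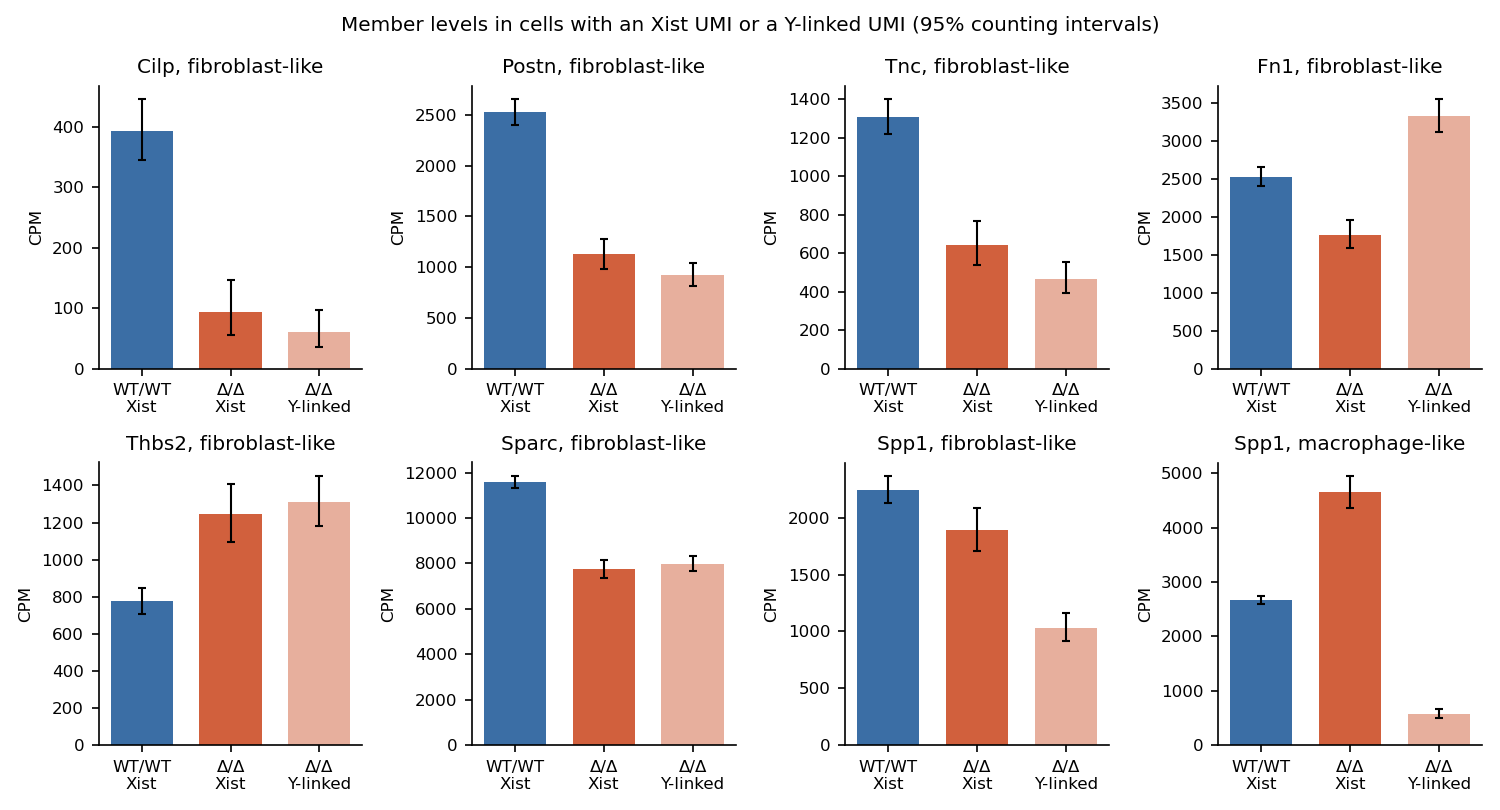
CPM with 95% counting intervals in WT cells with an Xist UMI, KO cells with an Xist UMI and KO cells with a Y-linked UMI, for the 7 genes in fibroblast-like cells and for Spp1 in macrophage-like cells. Cells with neither transcript are not drawn. Both KO bars are below WT for Cilp, Postn, Tnc, Sparc and fibroblast-like Spp1 and above it for Thbs2. They lie on either side of WT for Fn1 and for macrophage-like Spp1.

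Fibroblast-like cells with a Cilp UMI were compared with those without one. In WT the 68 cells with Cilp had more Postn (3515 against 1687 CPM, log2 1.06, 0.92 to 1.20), Sparc (13138 against 10156 CPM, log2 0.37, 0.31 to 0.43) and Igf1 (337 against 133 CPM, log2 1.35, 0.87 to 1.84), and less Spp1 (1940 against 2747 CPM, log2 -0.50, -0.65 to -0.36). Fn1 and Thbs2 had intervals that included 0. The 12 KO cells with Cilp likewise had more Postn, 2719 against 793 CPM, and Igf1, 342 against 42.0 CPM. Acta2, the smooth muscle actin of contractile fibroblasts, was higher with Cilp in KO, 936 against 322 CPM, and not in WT, log2 -0.12 (-0.36 to 0.12). Spp1 in KO had a log2 difference of 0.19 (-0.11 to 0.48). The myeloid marker Lyz2 was also higher in the WT cells with Cilp, 118 against 50.8 CPM, log2 1.22 (0.41 to 2.05), and its part was not tested. Cells with a Cilp UMI were somewhat deeper, with medians of 3976.5 against 3340.5 UMIs in WT and 4549.5 against 3580 UMIs in KO, and the part of depth was not tested.

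Over the 12 sums of 6 classes in 2 libraries, the genes whose log2 CPM pattern was most like that of Cilp, among 9881 genes with at least 200 UMIs, were Dpt (Pearson r = 0.97), Has1 (0.96), Mfap5 (0.95), Srpx (0.94) and Efemp1 (0.94). Dpt and Mfap5 are among the gate markers, and the points share libraries, so the values describe class patterns. These fibroblast genes were not as far apart between the libraries as Cilp. Dermatopontin, Dpt, was at 354 and 294 CPM in fibroblast-like cells (log2 -0.26), Has1, a hyaluronan synthase, at 244 and 232 CPM (log2 -0.08), Srpx at 176 and 86.4 CPM (log2 -1.02) and Efemp1, a fibulin, at 154 and 228 CPM (log2 0.57). For Spp1 the most alike were Cxcl1 (0.95), Ccl2 (0.93), Apbb1ip (0.93), Egr2 (0.93) and Ifi204 (0.92). In fibroblast-like cells the chemokine genes Cxcl1 and Ccl2 had log2 ratios of 0.48 and 0.05 and Egr2 of -1.89, beside -0.59 for Spp1.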

How the data were processed

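Tumours were dissociated and 10x Chromium 3′ libraries were sequenced. The labels name the V3 kit and the study's methods name V2, so depth is taken from the counts. The authors deposited raw UMI counts per gene and cell, made by Cell Ranger 3.1.0 on GRCm38 and its Ensembl genes and not normalised. Seurat 3.2.1 is named in the submitters' processing notes for later steps, which are not in these files.

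The cell filter was 200 to 5000 genes and 7.5% mitochondrial UMIs or less. Classes came from marker gates (summed marker UMIs per 10000 UMIs, with at least 3 markers seen, erythroid 2): 30 for fibroblast and endothelial, 50 for myeloid, melanoma and erythroid, 20 for T/NK, with myeloid cells split at 30. Cells past more than 1 gate were set apart, and no doublets were removed. Marker levels were known when the thresholds were set. Each class of a library was pooled, and a gene's sum was divided by the pooled total (CPM). Sums have exact Poisson, ratios exact conditional binomial and shares exact Clopper-Pearson 95% intervals, which cover counting error only. Shares were taken after thinning cells to 2000 UMIs. Ratios set a count of 0 to 3 and were not given where both counts were at most 3. Genes needed 20 UMIs over both libraries to be counted, and 2-fold was the threshold. No p-value is given, since each genotype had 1 library.

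The 7 genes and all lists were chosen with earlier results of these data known. Named genes were the 7, their paralogues, genes of the fixed lists past 2-fold, receptors and growth factors of the list, and the 5 genes most like Cilp and Spp1. Acta2, Lyz2, Cldn5, Ndufa4l2, Pdgfrb and Dct were named after their values had been seen. Of the 7 genes, 6 had an entry in the RefSeq promoter table. Ratios were tested on simulated counts. Python 3.11.15, numpy 2.4.6, scipy 1.17.1, scanpy 1.11.5 and edgeR 4.0.16 (scaling factors only, R 4.3.3) were used.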

Additional observations from a re-analysis of the deposited data

Results flagged for a closer look

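Some genes of the group stood in opposite directions in different cells of the same pair of libraries. None of these differences was tested, since each genotype had 1 library, and values are log2 KO/WT ratios.

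Spp1 was at -0.90 in macrophage-like and 0.74 in monocyte-like cells, a difference of 1.65, at -0.59 in fibroblast-like cells, 1.33 from the monocyte-like value, and at -0.96 in melanoma-like cells, 1.71 from it. The opposite directions did not hold under all settings, since monocyte-like Spp1 was -0.30 with classes from clusters, macrophage-like Spp1 was 0.80 in Xist-positive cells and melanoma-like Spp1 was -0.20 without called doublets. Fn1 was at -0.16 in macrophage-like cells, against 0.25 in fibroblast-like (a difference of 0.41), 0.91 in endothelial-like (1.07), 0.87 in monocyte-like (1.03) and 0.58 in melanoma-like cells (0.74). In Xist-positive cells Fn1 was -0.49, -0.52, -0.24, 1.10 and -0.71 in that order. The endothelial-like and melanoma-like intervals then included 0, and Xist does not mark the sex of the injected line. Only the monocyte-like interval then lay above 0. Sparc was at -0.54 in fibroblast-like cells, against 0.33 in endothelial-like (0.87) and 0.23 in melanoma-like cells (0.77).

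Within KO, the cells with an Xist UMI and those with a Y-linked UMI stood on opposite sides of WT, with both counting intervals off 0, for 2 results. Fn1 in fibroblast-like cells was at -0.52 and 0.40, a difference of 0.92, and Spp1 in macrophage-like cells at 0.80 and -2.22, a difference of -3.02. Monocyte-like Spp1 was at 2.39 and -0.74, the second with an interval that included 0.

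In the barcodes left out by the cell filters, Fn1 was at 59.4 CPM in KO against 50.7 CPM in WT, and Sparc at 430.0 CPM against 390 CPM, with intervals that did not overlap. Spp1, Postn, Tnc and Cilp went the other way there, also without overlap. Spp1 was at 30.1 CPM in KO against 96.4 CPM in WT, and Postn at 8.38 against 14.0 CPM. Tnc was at 3.69 against 8.27 CPM and Cilp at 1.08 against 2.81 CPM. Thbs2, at 5.84 against 3.87 CPM, had intervals that overlapped.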

How the results depend on the processing

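Over 11 alternative settings and 2 more chosen after seeing the data (keeping cells past more than 1 gate, and leaving out the cell with most UMIs of the gene in each library), log2 KO/WT ratios in fibroblast-like cells ranged from -3.15 to -2.07 for Cilp, -1.45 to -1.17 for Postn, -1.33 to -1.02 for Tnc, -0.58 to -0.44 for Sparc, -0.60 to -0.25 for Spp1, -0.52 to 0.31 for Fn1 and 0.56 to 0.68 for Thbs2. In Xist-positive cells alone, values were -2.07 (Cilp), -1.17 (Postn), -1.02 (Tnc), -0.25 (Spp1) and -0.52 (Fn1, turned). With classes from clusters they were -1.10 (Tnc), -0.44 (Sparc) and -0.39 (Spp1). Sparc was -0.49 without mitochondrial and ribosomal genes, -0.48 with TMM scaling and -0.48 with cells past more than 1 gate kept, where Spp1 was -0.45. Over clusters in place of marker lists, the median ratio within parts was -1.39 (Cilp), -1.05 (Postn), -0.86 (Tnc), -0.30 (Sparc), -0.21 (Fn1, turned from 0.24) and -0.29 (Thbs2, turned from 0.56). In other classes the direction turned in Xist-positive cells for macrophage-like Spp1 (0.80) and, with intervals that included 0, for endothelial-like Fn1 (-0.24) and Sparc (-0.023) and melanoma-like Fn1 (-0.71) and Sparc (-0.13), where Xist does not mark the sex of the injected line, and with classes from clusters for Spp1 in monocyte-like (-0.30) and melanoma-like cells (0.11). The melanoma-like class from clusters was 1 cluster of 1011 WT and 657 KO cells, against 1778 and 1852 gated cells. In Xist-positive endothelial-like cells Tnc had 0 KO UMIs, where setting 0 to 3 counts gives 0.25 and no direction can be read. The cause was not tested. With a minimum of 50 UMIs, 170 of 4378 measured genes were past 2-fold lower and 139 higher in KO fibroblast-like cells. With the minimum of 20 UMIs these were 440 and 379 of 7313 genes. The counts for the 7 genes stayed at 3 and 0. No paired analysis was possible because WT and KO were a single library apiece. Depth limits Cilp outside fibroblast-like cells and all values in the 26 KO endothelial-like cells.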
